A study of Mus musculus with 8 samples.

Results

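The replication-dependent histone genes are the multicopy genes that supply a cell with linker and core histones while it copies its DNA. They were taken as the genes of the deposited mRNA table whose older symbol begins with Hist1h, Hist2h, Hist3h or Hist4h and whose level reached 1 FPKM (fragments scaled by transcript length and by the mapped fragments of the column) in at least 2 of the 4 columns. All 67 genes with such a symbol met that rule, out of 29639 genes in the table and 13279 that passed the same filter. They comprise 6 H1, 18 H2A, 18 H2B, 12 H3 and 13 H4 genes. By cluster, 54 are Hist1 genes on chromosome 13, 10 are Hist2 genes on chromosome 3, 2 are Hist3 genes on chromosome 11 and 1, Hist4h4, lies on chromosome 6 (RefSeq, GRCm38.p6).

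The RNA came from whole mouse embryos that carried 3 polyadenylation cassettes, which cut transcription short, knocked into the promoter of Gtl2, a maternally expressed long non-coding RNA of the imprinted Dlk1-Dio3 domain. In PKI embryos the paternal copy carried the insertion, in MKI embryos the maternal copy did, HOMO embryos had it on both copies, and WT (wild-type) embryos had none. Embryonic day 12.5 is the stage of every group in the series' design text, whereas the titles of the knock-in samples give stages a fraction of a day later, by genotype. The labels describe 8 samples, 2 per genotype, but the table holds 1 column per genotype. The sources used here name no strain, litter or number of embryos per sample.

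With 1 column per group there is no spread between replicates, so no difference below carries an error, a test or a p-value. Differences are on the log2(FPKM + 0.5) scale, and "2-fold" marks a size and not a significance. An effect of the insertion and a peculiarity of a single library cannot be told apart. In a whole embryo, fewer cells in S phase and less histone mRNA per cell cannot be told apart either.

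Core histones H2A, H2B, H3 and H4 form the spool around which DNA is wound, and H1 binds the DNA where it enters and leaves that spool. Their replication-dependent mRNAs accumulate in S phase and are removed when DNA synthesis stops. Most of these mRNAs are cleaved after a conserved stem-loop, which the stem-loop binding protein SLBP recognises, and so carry no poly(A) tail. The libraries were made with 2 rounds of oligo(dT) selection, which favours tailed RNA. The levels below therefore measure the histone mRNA that was carried through that selection, and its completeness in each library was not tested.

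Over the whole table, MKI was the column least like the rest. Over the 13279 genes kept, Pearson's r of log2 levels, a description across genes of single columns, was 0.864 to 0.882 between MKI and each other column and 0.961 to 0.975 among the others. The median of all these genes was 8.16 FPKM in PKI, 6.92 in MKI, 8.26 in HOMO and 8.62 in WT. The Y-linked genes Ddx3y, Eif2s3y, Kdm5d and Uty lay between 7.12 and 29.7 FPKM in the knock-in columns and were listed at 0 in WT, so the sex of the embryos differed as well. Gtl2 was not analysed here, so the labels were not checked against the targeted gene.

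Histone mRNA was abundant in PKI, HOMO and WT embryos and much scarcer in MKI embryos. The 67 genes summed to 25025 FPKM in PKI, 4695 in MKI, 19221 in HOMO and 18882 in WT. They made up 8.42% of the column sum in PKI, 1.88% in MKI, 6.80% in HOMO and 6.73% in WT. The MKI sum was thus 24.9% of the WT sum, the PKI sum 132.5% and the HOMO sum 102%. Among the 100 most abundant genes of each column were 29 histone genes in PKI, 4 in MKI, 29 in HOMO and 28 in WT. The median histone gene stood at 340 FPKM in PKI, 43.1 in MKI, 281 in HOMO and 237 in WT.

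**Figure D1:**
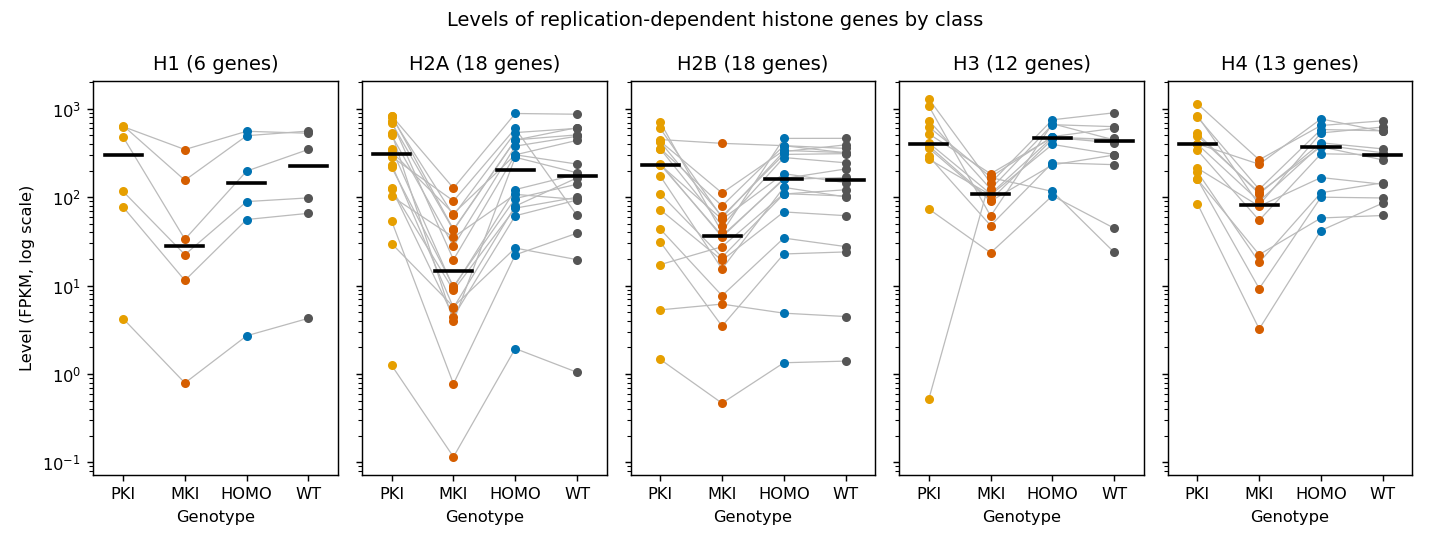
Level of each of the 67 histone genes (FPKM, log scale) in PKI, MKI, HOMO and WT, with a panel for each class; each point is a gene, grey lines join the same gene across columns and black bars are class medians. The class median is lowest in MKI in every class, although single genes such as Hist1h3d depart from this, and the H2A median in MKI is 14.7 FPKM, against 174 FPKM in WT.

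The number of genes at each level showed the same contrast. Levels of at least 100 FPKM were reached by 53 histone genes in PKI, 17 in MKI, 50 in HOMO and 47 in WT. Below 10 FPKM lay 5 in PKI, 16 in MKI, 4 in HOMO and 4 in WT. Among the weak members were testis histones, which package chromatin in male germ cells. Hist1h1t stood at 4.23 FPKM in PKI, 0.791 in MKI, 2.71 in HOMO and 4.27 in WT, and Hist1h2aa at 1.25, 0.115, 1.94 and 1.05 FPKM in the same order of columns. Each was the lowest gene of its class in every column.

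A class sum does not depend on how counted fragments were divided among its near-identical copies, although fragments that were dropped or counted more than once would still affect it. H2A genes summed to 6788 FPKM in PKI, 562 in MKI, 4773 in HOMO and 4846 in WT, so that MKI held 11.6% of the WT sum. H2B genes, whose products pair with H2A, summed to 4476 FPKM in PKI, 1035 in MKI, 3469 in HOMO and 3374 in WT, and MKI held 30.7% of WT. The 2 classes whose proteins dimerise were therefore unequally low in MKI.

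H3 genes summed to 6041 FPKM in PKI, 1321 in MKI, 5078 in HOMO and 4811 in WT, and H4 genes, whose products join H3 in the central tetramer, to 5765, 1206, 4501 and 4244 FPKM in the same order. MKI held 27.5% of the WT sum for H3 and 28.4% for H4. The linker histones summed to 1955 FPKM in PKI, 570 in MKI, 1400 in HOMO and 1607 in WT, which left 35.5% of WT in MKI. H2A accordingly made up 12.0% of all histone FPKM in MKI, against 25.7% in WT, while H1 made up 12.1% in MKI, against 8.51% in WT. Single genes weigh on these sums. In MKI, Hist1h1a made up 60.8% of the H1 sum and Hist2h2bb 39.3% of the H2B sum. In PKI and HOMO the H2A share was 27.1% and 24.8%.

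**Figure D2:**
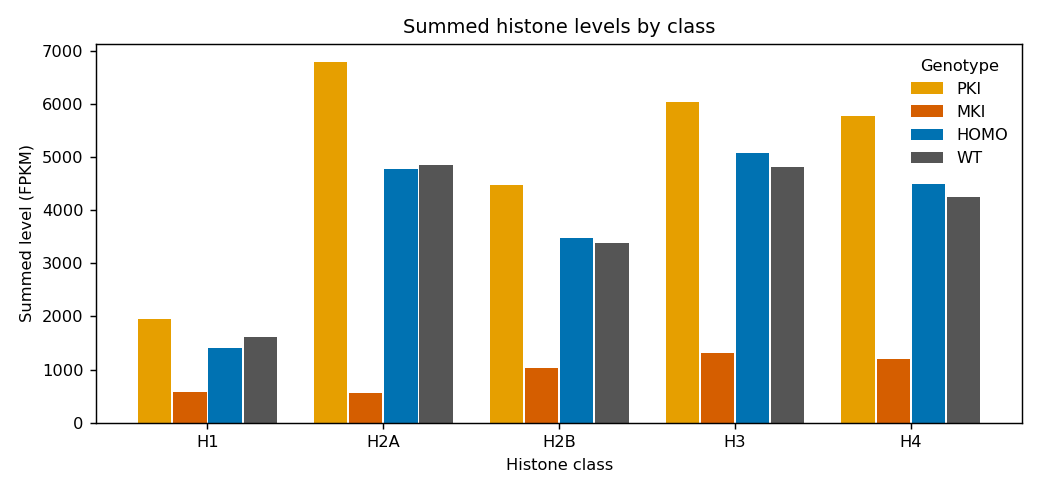
Summed level (FPKM) of the genes of each histone class in PKI, MKI, HOMO and WT; each bar is the sum over all members of the class in 1 column. MKI has the shortest bar in every class, and its H2A bar (562 FPKM) is 11.6% of the WT bar (4846 FPKM).

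In MKI against WT, 59 of the 67 histone genes were at least 2-fold lower and 1 was at least 2-fold higher, where 19.1% of all genes kept were 2-fold lower and 1.22% were 2-fold higher. The median difference of the histone genes was -2.19, with a range from -5.42 to 2.78, and the median of all genes kept was -0.11. Quantile normalization moved the median of all genes to 0.12 and the background to 12.5% lower and 4.37% higher. Relative to the median of all genes, the histone median was -2.08 as deposited and -2.32 after quantile normalization.

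By class, the median difference of MKI from WT was -3.66 for H2A, -2.17 for H2B, -1.997 for H1, -1.94 for H3 and -1.82 for H4. The number of genes at least 2-fold lower was 17 of 18 for H2A, 15 of 18 for H2B, 5 of 6 for H1, 10 of 12 for H3 and 12 of 13 for H4. The lower H2A level was mainly that of the chromosome 13 genes. The 13 Hist1 H2A genes had a median of -4.11 (range -5.42 to -1.33) and together held 6.69% of their WT sum, whereas the 5 H2A genes of the Hist2 and Hist3 clusters had a median of -1.69 (range -2.77 to 0.54) and held 25.3%.

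**Figure D3:**
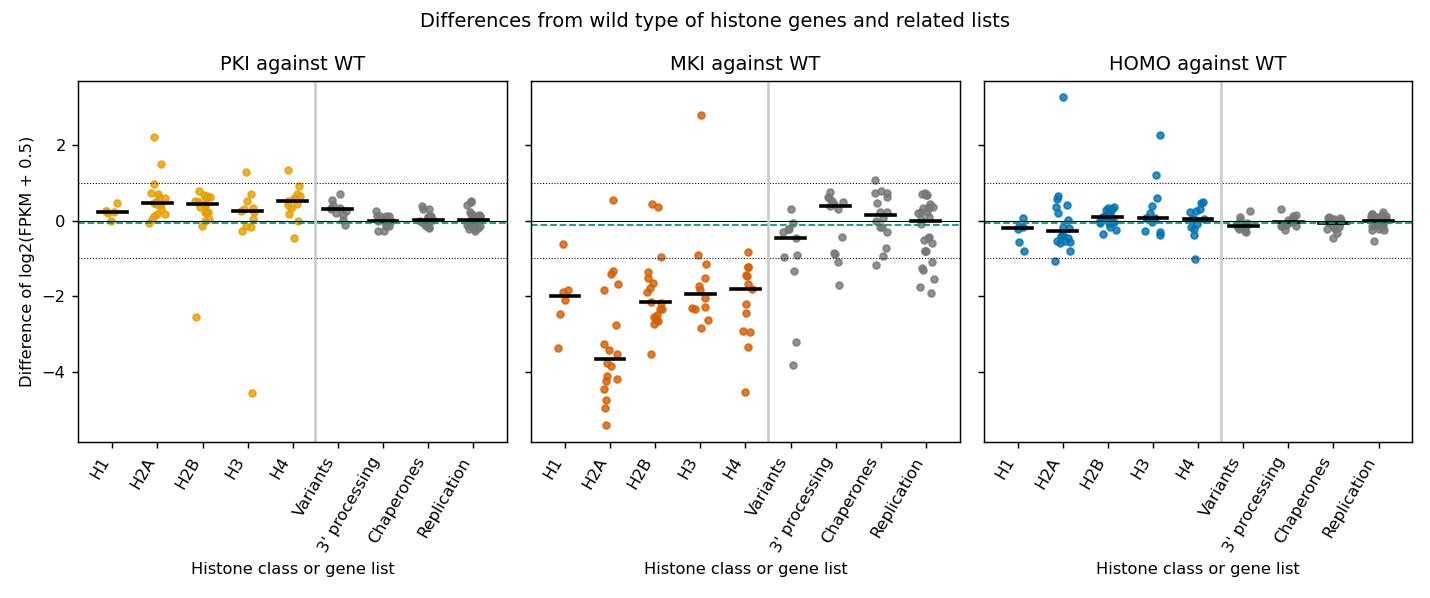
Difference of log2(FPKM + 0.5) from WT for each histone gene by class, and for histone variants, 3' end processing genes, chaperones and DNA replication genes, in PKI, MKI and HOMO; each point is a gene, black bars are medians, the dashed green line is the median of all genes kept and dotted lines mark 2-fold. In MKI the class medians lie between -3.66 and -1.82, while the medians of the other lists lie between -0.45 and 0.38.

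Of the 3 members with the largest MKI deficit, all were Hist1 H2A genes. Hist1h2ai (chr13:21716412-21716859, plus strand) stood at 535 FPKM in PKI, 3.93 in MKI, 283 in HOMO and 189 in WT, and differed from WT by 1.498 in PKI, -5.42 in MKI and 0.58 in HOMO. Hist1h2ac (chr13:23683473-23683959, minus strand) stood at 53.6 FPKM in PKI, 0.772 in MKI, 22.3 in HOMO and 39.2 in WT, a difference of -4.96 in MKI. Hist1h2ae (chr13:23570663-23571220, minus strand) stood at 234 FPKM in PKI, 5.63 in MKI, 79.4 in HOMO and 166 in WT. It differed from WT by -4.76 in MKI and also passed 2-fold in HOMO, at -1.06. All 3 encode canonical H2A and were more than 29-fold lower in MKI than in WT by FPKM without the pseudocount. The MKI level of Hist1h2ac was near the pseudocount, and its difference was -5.49 with a pseudocount of 0.1 and -4.50 with 1.

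The promoter of Hist1h2ai is shown because it spans the 228 bases between this gene and Hist1h2bl, which is read the opposite way, so that the gap lies upstream of both. The sequence covers the 250 bases before the RefSeq start (chr13:21716162-21716411, plus strand, RefSeq GRCm38.p6) and so begins within Hist1h2bl, and capitals mark the CCAAT box, found 3 times on this strand and once as ATTGG on the other.
Hist1h2ai: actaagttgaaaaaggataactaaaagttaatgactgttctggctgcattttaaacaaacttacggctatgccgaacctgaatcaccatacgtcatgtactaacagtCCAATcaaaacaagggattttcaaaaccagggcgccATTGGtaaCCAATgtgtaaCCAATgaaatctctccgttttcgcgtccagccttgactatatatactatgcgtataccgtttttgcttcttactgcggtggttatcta

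Such head-to-head arrangements allowed H2A and H2B genes to be compared within the same stretch of DNA. Among members with a listed position and strand, 9 H2A-H2B pairs of the Hist1 cluster lay back to back with gaps of 163 to 280 bases. No strand was listed for Hist1h2bc and Hist2h2be, which lie next to Hist1h2ac and Hist2h2ac, so these genes were not paired. In MKI the H2A partner was lower relative to WT than the H2B partner in 9 of the 9 pairs, with a median of -3.84 for the H2A partners and -2.35 for the H2B partners. The H2A value minus the H2B value ranged from -2.69, for Hist1h2ai and Hist1h2bl, to -0.36, for the testis pair Hist1h2aa and Hist1h2ba, with a median of -1.68. Both testis genes lay below the pseudocount of 0.5 in MKI, at 0.115 and 0.467 FPKM, which shrinks their value of -0.36. Hist1h2bl stood at 601 FPKM in PKI, 58.6 in MKI, 328 in HOMO and 392 in WT, a difference of -2.73 in MKI. The H2A partner was the lower one in 0 of the 9 pairs in PKI and in 6 of the 9 in HOMO. The lower H2A level in MKI thus held between neighbours whose starts flank the same short stretch. The values are the same as in the class medians above, so the pairs are not separate support for that difference. The pairs were chosen by position, but they are not independent, since copies within a class can share reads.

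**Figure D4:**
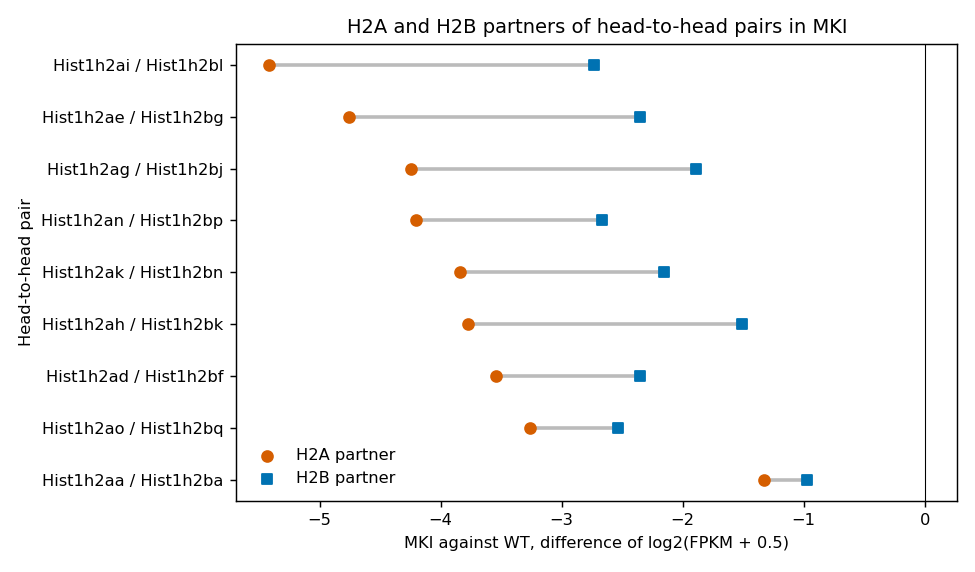
Difference of log2(FPKM + 0.5) between MKI and WT for the H2A (orange circles) and H2B (blue squares) partner of each of 9 head-to-head gene pairs on chromosome 13. In each pair the H2A partner lies to the left, by 0.36 to 2.69 on the log2 scale, the larger value for Hist1h2ai and Hist1h2bl.

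Position along chromosome 13 separated the members less than H2A was separated from the other classes. The Hist1 genes fall into 2 blocks, with 22 genes in chr13:21715711-22043658 and 31 in chr13:23531044-23934913. The median MKI difference was -2.70 in the first block, where 22 of 22 genes were 2-fold lower, and -2.04 in the second, where 27 of 31 were. The medians of H1, H2B, H3 and H4, from -2.17 to -1.82, lay closer together than those of the blocks. The blocks were not compared within a class. Hist4h4, the lone member on chromosome 6 (chr6:136803993-136804431, minus strand), stood at 84.6 FPKM in PKI, 3.23 in MKI, 42.0 in HOMO and 85.8 in WT. Its difference of -4.53 in MKI was further below WT than that of any H4 gene of the chromosome 13 and chromosome 3 clusters, and in HOMO it was -1.02.

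Among the linker histones, the abundant genes were not lowered to the same degree in MKI. Hist1h1c, which encodes H1.2, stood at 481 FPKM in PKI, 33.5 in MKI, 198 in HOMO and 348 in WT, with differences of 0.47, -3.36 and -0.81 from WT in PKI, MKI and HOMO. Hist1h1b, which encodes H1.5, stood at 646 FPKM in PKI, 156 in MKI, 497 in HOMO and 561 in WT, a difference of -1.85 in MKI. Hist1h1a, which encodes H1.1, stood at 630 FPKM in PKI, 347 in MKI, 558 in HOMO and 530 in WT, a difference of -0.61 in MKI. Hist1h1a was therefore the linker gene that came closest to its WT level in MKI, and it made up 60.8% of the H1 sum there, against 33.0% in WT. In PKI, Hist1h1a and Hist1h1b differed from WT by 0.25 and 0.20, but by -0.02 and -0.11 after quantile normalization.

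In the H4 class, Hist1h4n stood at 1143 FPKM in PKI, 265 in MKI, 648 in HOMO and 732 in WT, and Hist1h4h at 807, 123, 584 and 564 FPKM in the same order. Hist1h4k stood at 840 FPKM in PKI, 81.9 in MKI, 534 in HOMO and 623 in WT. Their MKI differences were -1.46, -2.19 and -2.92. These genes encode the same, highly conserved protein. How fragments were shared among H4 copies was not tested, so the values are not read as a difference between the genes. Among abundant H3 genes, Hist1h3i, an H3.1 gene, stood at 1295 FPKM in PKI, 145 in MKI, 752 in HOMO and 903 in WT, and was the most abundant member in PKI and in WT. Hist1h3e, an H3.2 gene, stood at 738 FPKM in PKI, 124 in MKI, 662 in HOMO and 629 in WT.

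The H3 genes encode the forms H3.1 and H3.2, which differ at a single residue. The H3.1 genes (Hist1h3a, Hist1h3g, Hist1h3h and Hist1h3i) summed to 3162 FPKM in PKI, 497 in MKI, 2303 in HOMO and 2064 in WT. The 8 H3.2 genes summed to 2879 FPKM in PKI, 824 in MKI, 2775 in HOMO and 2748 in WT. MKI held 24.1% of the WT sum for H3.1 and 30.0% for H3.2, while PKI held 153% and 105%. The H3.2 sum includes Hist1h3d, which stood at 167 FPKM in MKI and 23.8 in WT. The 9 Hist1h3 genes held 28.4% of their WT sum in MKI, and 24.5% without Hist1h3d. The MKI contrast between the 2 forms therefore leans on that gene and is not read as a difference between forms.

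Of the most abundant H2A and H2B genes, Hist1h2ad stood at 841 FPKM in PKI, 43.1 in MKI, 445 in HOMO and 508 in WT. Hist1h2ao stood at 801 FPKM in PKI, 62.2 in MKI, 539 in HOMO and 602 in WT. Hist1h2br, an H2B gene, stood at 705 FPKM in PKI, 40.0 in MKI, 463 in HOMO and 464 in WT. In all 3 the MKI level was at most 10.3% of WT, and the differences were -3.54, -3.26 and -3.52.

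Against that background, 8 histone genes were not 2-fold lower in MKI. Hist1h1a, Hist1h2ba, Hist1h4c and Hist2h3c1 were lower by less than 2-fold on the log2(FPKM + 0.5) scale, at -0.61, -0.97, -0.82 and -0.91. Hist1h2ba stood at 1.46 FPKM in PKI, 0.467 in MKI, 1.34 in HOMO and 1.40 in WT. Its MKI level was 33.4% of WT, so its place here rests on the pseudocount. With a pseudocount of 0.1, 60 members were 2-fold lower. Hist2h2aa1, Hist2h2be and Hist2h2bb lay above WT by less than 2-fold, at 0.54, 0.43 and 0.36. Hist1h3d was the member that passed 2-fold upward, at 2.78. Hist1h2ba, Hist1h4c and Hist2h2be are outside the rule for named genes and were singled out after their values were seen.

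Hist2h2bb, an H2B gene, was the clearest of these by level, at 450 FPKM in PKI, 407 in MKI, 383 in HOMO and 318 in WT. It ranked 1 of 67 in MKI and 27 in WT, and provided 39.3% of all H2B FPKM in MKI. It differed from WT by 0.50 in PKI, 0.36 in MKI and 0.27 in HOMO. Its promoter is shown for comparison with that of Hist1h2ai, with capitals marking the CCAAT box (once on each strand) and the octamer ATTTGCAT, the element bound by POU factors and typical of H2B promoters (chr3:96269450-96269699, plus strand, RefSeq GRCm38.p6).
Hist2h2bb: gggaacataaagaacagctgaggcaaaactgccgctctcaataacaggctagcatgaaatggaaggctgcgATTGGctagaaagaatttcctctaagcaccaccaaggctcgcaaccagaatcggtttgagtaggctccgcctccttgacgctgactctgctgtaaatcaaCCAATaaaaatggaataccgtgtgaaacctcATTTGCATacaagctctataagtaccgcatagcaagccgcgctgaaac

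Promoters were available for 61 of the 67 members, and 4 motifs besides the octamer were sought on both strands in the 250 bases before the start. The CCAAT box was found in 50 member promoters (82.0%), against 34.5% of 27025 promoters in the table, and TATAAA in 29 (47.5%), against 12.97%. CCAAT was present in all 6 H1, 17 H2A and 16 H2B promoters searched, in 8 of 10 H3 promoters and in 3 of 12 H4 promoters. The octamer was found in 13 (21.3%), against 1.61%, and these were 7 H2A and 6 H2B promoters. The median MKI difference from WT was -3.77 with the octamer and -3.69 without it for H2A, and -1.44 and -2.44 for H2B. Whether the octamer bears on the MKI level was not tested. AAACACA, the H1 box, was in 5 of 6 H1 promoters and in 9 members (14.8%), against 6.22%, and GGTCCG, from the H4 element, in 9 of 12 H4 promoters and in 11 members (18.03%), against 6.82%. The classes thus carry different motif sets, which is known of these genes, and a match is a description and not a binding site.

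Hist1h3d (chr13:23575763-23576266, plus strand), an H3.2 gene, had a pattern of its own. It stood at 0.520 FPKM in PKI, 167 in MKI, 116 in HOMO and 23.8 in WT. Both columns with a maternal insertion were above both columns without it. PKI differed from WT by -4.57, MKI by 2.78 and HOMO by 2.27, and HOMO differed from PKI by 6.84. With a pseudocount of 0.1 the PKI difference was -5.27, and with 1 it was -4.03. The 8 other Hist1h3 genes summed to 5295 FPKM in PKI, 989 in MKI, 4159 in HOMO and 4047 in WT, so their sum did not follow Hist1h3d. Coding sequences of these genes are near-identical, and the sources used here do not say how fragments were shared among them.

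Hist1h2bj (chr13:22043198-22043658, plus strand) was the other member that was 2-fold lower in PKI. It stood at 17.3 FPKM in PKI, 27.6 in MKI, 110 in HOMO and 103 in WT, so that it was low with either insertion alone and near WT with both. PKI differed from WT by -2.55, MKI by -1.89 and HOMO by 0.09. The summed Hist1h2b genes stood at 3949 FPKM in PKI, 602 in MKI, 3013 in HOMO and 2990 in WT, which does not share the low PKI value.

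Hist2h2aa1 and Hist2h2aa2 are neighbouring H2A copies on chromosome 3 whose single-gene values differed in pattern. Whether fragments were shared between them was not tested. Their RefSeq promoters are printed because 169 bases of them, in capitals, are identical (Hist2h2aa1, chr3:96245247-96245496, plus strand; Hist2h2aa2, chr3:96240375-96240624, minus strand; RefSeq GRCm38.p6; both 5' to 3').
Hist2h2aa1: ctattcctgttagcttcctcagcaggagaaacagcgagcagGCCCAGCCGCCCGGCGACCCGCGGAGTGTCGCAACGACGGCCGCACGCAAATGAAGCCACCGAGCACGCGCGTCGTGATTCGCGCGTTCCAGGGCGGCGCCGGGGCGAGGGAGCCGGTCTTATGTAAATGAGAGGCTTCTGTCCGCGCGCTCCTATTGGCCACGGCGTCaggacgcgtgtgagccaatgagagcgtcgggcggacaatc
Hist2h2aa2: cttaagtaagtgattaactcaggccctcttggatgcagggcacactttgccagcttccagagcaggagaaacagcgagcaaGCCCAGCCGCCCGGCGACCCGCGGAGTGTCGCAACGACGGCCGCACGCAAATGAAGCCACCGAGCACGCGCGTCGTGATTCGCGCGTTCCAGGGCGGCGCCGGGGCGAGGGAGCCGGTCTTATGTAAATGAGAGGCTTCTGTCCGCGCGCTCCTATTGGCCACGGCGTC

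Hist2h2aa1 stood at 288 FPKM in PKI, 90.8 in MKI, 600 in HOMO and 62.2 in WT, with differences from WT of 2.20, 0.54 and 3.26. Hist2h2aa2 stood at 835 FPKM in PKI, 127 in MKI, 886 in HOMO and 869 in WT, with differences of -0.06, -2.77 and 0.03, the first of them 0.04 after TMM scaling (trimmed mean of M values, a scaling by the middle of the log ratios). The sum of both copies was 1123 FPKM in PKI, 218 in MKI, 1486 in HOMO and 931 in WT. For that sum, PKI differed from WT by 0.27, MKI by -2.10 and HOMO by 0.67, so that no knock-in column was 2-fold higher. The neighbouring H3 copies Hist2h3b, Hist2h3c1 and Hist2h3c2 behaved alike in this respect. Hist2h3c1 stood at 73.6 FPKM in PKI, 23.5 in MKI, 104 in HOMO and 44.6 in WT, a difference of 1.21 in HOMO, while the 3 copies summed to 745 FPKM in PKI, 165 in MKI, 802 in HOMO and 741 in WT, a difference of 0.11.

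**Figure D5:**
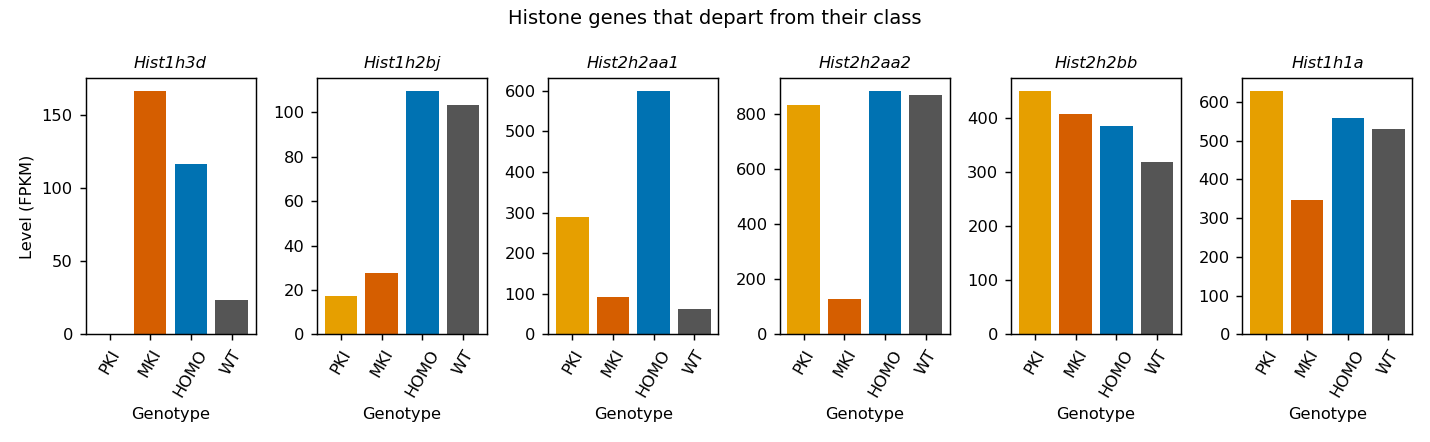
Level (FPKM, linear axes starting at 0, with a scale for each gene) of 6 histone genes whose pattern departs from that of their class, in PKI, MKI, HOMO and WT; each bar is 1 column. Hist1h3d is 0.520 FPKM in PKI and 167 FPKM in MKI, Hist1h2bj is low in PKI and MKI, and Hist2h2aa1 is highest in HOMO (600 FPKM, against 62.2 FPKM in WT).

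In PKI against WT, 4 histone genes were 2-fold higher and 2 were 2-fold lower, where 0.7% of all genes kept were 2-fold higher and 1.45% were 2-fold lower (0.791% and 0.964% after quantile normalization). Below that size, 56 of the 67 lay above WT, against 40.5% of all genes kept, and 46 did after quantile normalization. The median histone gene differed from WT by 0.41 and the median of all genes by -0.07. Class medians in PKI were 0.24 for H1, 0.46 for H2A, 0.43 for H2B, 0.24 for H3 and 0.52 for H4, and that of H3 became -0.12 after quantile normalization.

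The members that were 2-fold higher in PKI were Hist2h2aa1 and Hist1h2ai, given above, with Hist1h4i and Hist1h3h. Hist1h4i stood at 159 FPKM in PKI, 22.4 in MKI, 58.2 in HOMO and 62.1 in WT, with differences of 1.35, -1.45 and -0.09. Hist1h3h, an H3.1 gene close to Hist1h2ai on chromosome 13, stood at 1076 FPKM in PKI, 61.3 in MKI, 679 in HOMO and 445 in WT, with differences of 1.27, -2.85 and 0.61.

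In HOMO against WT, 3 histone genes were 2-fold higher (Hist2h2aa1, Hist1h3d and Hist2h3c1) and 2 were 2-fold lower (Hist1h2ae and Hist4h4), where 0.67% of all genes kept were 2-fold higher and 0.783% were 2-fold lower. With TMM scaling Hist1h2ae and Hist4h4 no longer passed 2-fold, and the background became 0.806% higher and 0.633% lower. Of the 67, 34 lay above WT, against 38.5% of all genes kept, and the median difference was 0.03, or -0.02 after quantile normalization. The HOMO class medians were -0.20 for H1, -0.28 for H2A, 0.09 for H2B, 0.08 for H3 and 0.03 for H4. Histone levels as a whole therefore lay near WT in HOMO embryos, which carry the maternal insertion that MKI embryos carry. Within H2A the clusters departed from WT in opposite directions. The summed Hist1 H2A genes stood at 2850 FPKM in HOMO, against 3564 FPKM in WT, or 80.0% of WT. The 5 H2A genes of Hist2 and Hist3 summed to 1923 FPKM in HOMO, against 1283 FPKM in WT, or 149.9% of WT. The latter sum includes Hist2h2aa1, at 600 FPKM in HOMO and 62.2 in WT.

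HOMO and PKI embryos differ in the maternal copy, as do MKI and WT embryos, and these 2 comparisons share no column. In HOMO against PKI, 3 histone genes were 2-fold higher and 9 were 2-fold lower, where 1.55% of all genes kept were 2-fold higher and 1.32% were 2-fold lower. Of the 9, 6 were H2A genes, and the others were Hist1h1c, Hist1h4i and Hist4h4. The median difference was -0.38 and 55 of the 67 lay lower in HOMO, against 48.9% of all genes kept. After quantile normalization the median was -0.20, 45 lay lower in HOMO and 6 were 2-fold lower. The size was well short of that between MKI and WT, where the median was -2.19.

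HOMO and MKI embryos differ in the paternal copy. In HOMO against MKI, 62 histone genes were 2-fold higher and 0 were 2-fold lower, where 19.7% of all genes kept were 2-fold higher and 3.64% were 2-fold lower (14.7% and 7.73% after quantile normalization). The median difference was 2.24. This comparison shares the MKI column with MKI against WT, so the low MKI values enter both.

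Across the 67 genes, Pearson's r of log2 levels was 0.933 between PKI and WT, 0.775 between MKI and WT and 0.950 between HOMO and WT. Between HOMO and PKI it was 0.877, close to the 0.868 between HOMO and MKI, and between PKI and MKI it was 0.645. These values are across genes of the same columns, which are not independent replicates, and genes of a class can share fragments.

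Genes around the histone supply gave a contrast of related function. The replication-independent histone variants come mostly from polyadenylated mRNA. Of 11 listed, 3 were 2-fold lower in MKI, where 19.1% of all genes kept were, with a median of -0.45. In PKI and HOMO 0 of them passed 2-fold, where at most 1.45% of all genes kept did in either direction. H2afz, which encodes the H2A.Z variant, stood at 551 FPKM in PKI, 246 in MKI, 305 in HOMO and 336 in WT. H3f3b, which encodes H3.3, stood at 248 FPKM in PKI, 333 in MKI, 248 in HOMO and 268 in WT.

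The 3 lower variants included H2afx, whose transcripts can end in either a stem-loop or a poly(A) tail and whose product marks DNA breaks. It stood at 231 FPKM in PKI, 13.1 in MKI, 156 in HOMO and 193 in WT, a difference of -3.83 in MKI. H1fx, a linker variant, stood at 32.6 FPKM in PKI, 2.35 in MKI, 21.5 in HOMO and 25.9 in WT, a difference of -3.21, and H2afj differed by -1.33. With 11 genes, a count of 3 is near the share over all genes and says nothing of the list as a whole.

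Among those members that are known to give polyadenylated mRNA in differentiated cells, the MKI level varied. Hist1h1c, given above, differed by -3.36, and Hist1h2bc, at 109 FPKM in PKI, 21.0 in MKI, 109 in HOMO and 122 in WT, by -2.51. Hist2h2be stood at 5.32 FPKM in PKI, 6.18 in MKI, 4.88 in HOMO and 4.47 in WT, a difference of 0.43. Both directions therefore occurred among these genes.

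Genes for the machinery that makes histone mRNA were read at the level of mRNA only, and its proteins were not measured. Of 14 listed, Zfp473 did not pass the filter, at 0.905 FPKM in PKI, 1.01 in MKI, 0.301 in HOMO and 0.771 in WT. Of 13 genes for histone mRNA transcription and 3' end processing that passed the filter, 2 were 2-fold lower in MKI, near the 19.1% of all genes kept, and the median was 0.38. Slbp, the stem-loop binding protein, stood at 30.6 FPKM in PKI, 42.9 in MKI, 28.8 in HOMO and 27.9 in WT. The most abundant were Ncbp1, a cap-binding protein, at 40.8 FPKM in PKI, 46.6 in MKI, 36.2 in HOMO and 37.3 in WT, and Srrt, which links the cap to RNA processing, at 33.3, 21.5, 39.0 and 40.3 FPKM in the same order. The 2 lower genes were Sympk, a scaffold of the cleavage complex, at -1.09, and Mif4gd, an SLBP partner in translation, at -1.71. Mif4gd was weak, at 0.541 FPKM in MKI and 2.90 in WT. Of 16 histone chaperone genes, Nap1l1, at 130.1 FPKM in PKI, 210.4 in MKI, 103 in HOMO and 100.1 in WT, was 2-fold higher in MKI (1.07), and Ipo4, an importer of histones into the nucleus, 2-fold lower (-1.17), and the median was 0.14. Of all genes kept, 1.22% were 2-fold higher and 19.1% 2-fold lower in MKI. Rbbp7, a subunit of histone-binding complexes, stood at 109 FPKM in PKI, 174 in MKI, 96.7 in HOMO and 101 in WT.

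DNA replication genes act in the same phase of the cell cycle as histone supply. Of 28 such genes, 6 (E2f1, Tk1, Cdt1, Gins2, Pold1 and Fen1) were 2-fold lower in MKI, a share near the 19.1% of all genes kept, and the median was -0.02. Pcna, the sliding clamp of DNA polymerases, stood at 158 FPKM in PKI, 140 in MKI, 98.9 in HOMO and 112 in WT, and Rrm1, a ribonucleotide reductase subunit, at 68.8, 114, 70.0 and 68.4 FPKM in the same order. The 4 proliferation genes Mki67, Top2a, Ccnb1 and Cdk1 had a median of 0.44 in MKI and 0 passed 2-fold, with Top2a at 111 FPKM in PKI, 162 in MKI, 103 in HOMO and 108 in WT. In PKI and HOMO, 0 of the variant, processing, chaperone and replication genes passed 2-fold. Of all genes kept, 0.7% were 2-fold higher and 1.45% 2-fold lower in PKI, and 0.67% and 0.783% in HOMO. A count of 0 is near those shares and says nothing of the lists.

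Other measures also differed between MKI and WT, and their part in the histone result was not tested. Outside the histone genes, 35 protein-coding genes with a RefSeq span of at most 1000 bases had an MKI median of -1.07. Of these, 18 were 2-fold lower, where 19.1% of all genes kept were. The 12417 genes with longer spans had a median of -0.13, and 2368 of them were 2-fold lower. Most histone genes have a span of at most 1000 bases. Within H2B, the 6 genes with spans over 1000 bases had a median of -2.52 and the 12 shorter ones -2.02, but a span on the genome is not the length of the transcript. Of 4 mitochondrial transcripts, 2 were 2-fold higher in MKI, where 1.22% of all genes kept were. These were mt-Co1, at 2464 FPKM in PKI, 3969 in MKI, 2577 in HOMO and 1936 in WT, and mt-Nd1, at 95.8, 355, 211 and 96.1 FPKM in the same order. The other ones did not pass 2-fold, mt-Cytb at 611 FPKM in PKI, 847 in MKI, 545 in HOMO and 515 in WT (0.72 in MKI) and mt-Nd2 with a difference of 0.19 in MKI. The 9 other listed RNAs of this kind, which include the untailed Rn7sk and Rmrp, were not found among the matched symbols of the mRNA table. Their levels could therefore not be read. Red cell genes, which mark cells that condense the nucleus, summed to 1148 FPKM in PKI, 792 in MKI, 2040 in HOMO and 2253 in WT. Nearly all of that was the globin gene Hbb-bs, at 1123 FPKM in PKI, 744 in MKI, 1972 in HOMO and 2201 in WT, while Alas2, an enzyme of haem synthesis, stood at 16.04, 34.1, 45.9 and 27.9 FPKM in the same order. Of the 5 red cell genes, 2 were 2-fold lower in MKI (median -0.99), where 19.1% of all genes kept were. In PKI, the column with the highest histone sum, 3 were 2-fold lower (median -1.17), where 1.45% of all genes kept were. Alas2 and Epb42 lay above WT in MKI, at 0.28 and 0.25. Klf1, an erythroid transcription factor, stood at 4.73 FPKM in PKI, 4.97 in MKI, 9.73 in HOMO and 12.798 in WT.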

How the data were processed

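Libraries were prepared from oligo(dT)-selected RNA, with dUTP in the second strand, and sequenced from both ends, per the labels' protocols. The submitters' processing notes name cutadapt 1.9, HISAT2 2.0.4, StringTie 1.3.4d and the GRCm38 build, besides DESeq2 and edgeR, whose use they do not state. Deposited values are read here as FPKM computed by the authors, since StringTie is the listed quantifier; the header names no unit. Depth is unknown, and so is whether a column is 1 library or several, whether quantification used strand and how multiply mapped fragments were treated.

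From the deposited table, symbols were matched through Ensembl identifiers for 22022 of 29639 entries, and 40 entries that share a symbol were summed. Genes were kept at 1 FPKM in at least 2 columns. RefSeq positions were found through older symbols for 66 of 67 members. Differences of log2(FPKM + 0.5) were computed with Python 3.11.15 and pandas 2.3.3 and tested on simulated data. The planned limma model could not be fitted with 1 column per group.

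The members and lists were chosen with earlier results of these data known. Named members are the 3 highest by mean in each class, those past 2-fold in at least 2 comparisons with WT, and the 3 largest differences each way in each; from the other lists the 2 highest by mean and those past 2-fold in at least 2 comparisons. Further genes are named as examples, chosen after their values were seen. Alternatives were pseudocounts of 0.1 and 1, no filter, a filter of 5 FPKM, quantile normalization, TMM factors and, added after seeing the data, scaling over the genes outside the members.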

Additional observations from a re-analysis of the deposited data

Results flagged for a closer look

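Hist1h2bj, an H2B gene of the Hist1 cluster, differed in opposite directions under the same contrast. The maternal insertion went with a difference of -1.89 where the paternal copy was intact (MKI against WT) and of 2.63 where it also carried the insertion (HOMO against PKI). The paternal insertion went with -2.55 where the maternal copy was intact (PKI against WT) and with 1.97 where it was not (HOMO against MKI). Each value rests on 1 column per group, and the difference between them was not tested. The gene has near-identical copies, and the sources used here do not say how fragments were shared among them.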

How the results depend on the processing

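No alternative reversed a direction that had passed 2-fold. Of 90 comparisons of a count or median of the members with an alternative, 89 stayed within 1.5 times (counts) or within 0.25 on the log2 scale (medians), and 1 moved: under TMM factors, 0 members were 2-fold lower in HOMO than in WT, against 2 as deposited (Hist1h2ae and Hist4h4, both close to the limit). Over all alternatives, 57 to 60 members were 2-fold lower and 1 was 2-fold higher in MKI than in WT, 4 to 6 were higher and 2 lower in PKI than in WT, and the medians ranged from -2.29 to -2.06 in MKI, from 0.17 to 0.51 in PKI and from -0.02 to 0.10 in HOMO. Of the values for single genes and classes 25 moved, 16 of them in PKI under quantile normalization. The stricter filter kept 64 members.

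No paired analysis was possible because each group has 1 column, which carries no replicate number. For the same reason no replicate was left out. The alternative over members with a distinct RefSeq protein was not run, since no protein table was used here. Leaving out the filter, or summing over all matching genes, leaves the same 67 members and is not counted here. The depth behind the FPKM is unknown, so values near 0, such as Hist1h3d in PKI, have no counting interval.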
